A study of Mus musculus with 44 samples.

Results

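Hippocampal RNA of mice on methionine restriction was compared between 18 and 15 months of age. All 7 libraries labelled 18M-MR and all 8 labelled 15M-MR were used, 15 of the 44 libraries of the series. Every mouse was C57BL/6J, and MR is read as methionine restriction, since the series title names such a diet. It holds little methionine, an amino acid that mammals cannot make. The 8 libraries of 15M-CD and 8 of 18M-CD, the control diet at the same ages, and the 7 of 5M-MR are set beside them. The labels give neither the sex of the mice nor the age at which the diet began. Values are FPKM, fragment counts scaled to transcript length and to the fragments mapped in a library, of loci assembled from the reads. A locus entered the comparison if at least 6 of the 15 libraries reached 1 FPKM, which held for 12389 of 13218 loci. A difference below means the log2(FPKM + 1) of 18 months minus that of 15 months, a scale that understates the change of low loci. The depth of each library is unknown.

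Methionine supplies S-adenosylmethionine, the methyl donor of the cell, and, through transsulfuration, cysteine for glutathione. A diet low in it is known to raise the liver hormone FGF21, which acts through FGF receptors that carry the co-receptor Klb, and cells short of amino acids are known to respond through the transcription factor ATF4. The hippocampus, which lays down new memories, holds granule cells of the dentate gyrus, pyramidal cells of the CA fields, interneurons that release GABA and neuropeptides, and glia.

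The libraries differed in lane, which went with group, and in measures that varied within the groups. All 8 libraries of 15M-MR came from lane 4, whereas 6 of 18M-MR came from lane 3 and 1, 18M-MR 2, from lane 1, so lane and age cannot be told apart within this comparison. Of the 15M-CD libraries 5 shared lane 3 with the 18M-MR libraries. The share of the FPKM sum in loci without a symbol ran from 4.62% to 8.29% in 15M-MR and from 4.04% to 12% in 18M-MR, that in mitochondrial rRNA loci from 5.33% to 7.87% and from 3.50% to 11.5%. Of the 5 library measures compared, which also included the number of loci at 0, Ttr and the FPKM sum, 0 passed, with adjusted p-values between 0.612 and 0.716 (2-sided exact permutation test over all assignments of the 15 libraries) and unadjusted p-values from 0.303 to 0.716. Those tests compare means, and a p above the threshold does not show the groups alike. The SD of the share without a symbol was 1.21 in 15M-MR and 2.84 in 18M-MR, and spreads were not tested. The granule cell markers of the dentate gyrus were present at 15 and 18 months, 11 of 14 of them among the loci tested. The library 18M-MR 1 stood closer to the 15M-MR mean than any other 18M-MR library at 11 of the 12 loci that passed the test, and 18M-CD 3 did so within its group at 10 of them. The library labelled 18M-MR 1 lay inside the 15M-MR range at 4 of the 12 loci and that labelled 18M-CD 3 at 8, each other 18-month library at no more than 1. At these loci 18M-CD 3 thus lay mostly among the 15M-MR values. In contrast 18M-MR 1 stood nearer to them than the rest of its group but mostly outside their range. Both age labels, in doubt at these loci, were used as given, so counts are also given without these libraries.

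Between 15 and 18 months under methionine restriction 12 loci changed, 0.0969% of those tested (limma, adjusted p under 0.05). At 18 months 9 were higher, 0.0726%, and 3 were lower, 0.0242%. Of the 12, 5 carried no symbol and 9 had no symbol or only a predicted or clone name. Among the loci lower at 18 months were Lynx1, a membrane-anchored modulator of nicotinic acetylcholine receptors, and Lhpp, a phosphatase. The higher loci with a symbol were Gm13304, G530011O06Rik, Tmem254c/Tmem254b, LOC101055676/LOC100041599 and LOC107988026. At an unadjusted p under 0.05, 155 loci were higher, 1.25%, and 773 were lower, 6.24%, and 7891 of the 12389 differences were below 0, with a median of −0.08. That tilt depended on the scaling: with median-of-ratios scaling the median was 0.03, the unadjusted counts were 351 higher and 311 lower, and 11 loci were called higher and 1 lower. Single libraries moved the unadjusted counts too, to 322 higher and 1332 lower without 18M-MR 4 and to 433 lower without 18M-MR 2, and lane as a factor gave 1475 and 2134.

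More loci passed without the library 18M-MR 1, namely 19, and without it and 18M-CD 3 there were 24, of which 11 were higher and 13 lower, with all 12 among them. Leaving out 18M-MR 4 or 18M-MR 5 instead gave 25 and 23. As 18M-MR 1 and 18M-CD 3 were picked after the data were seen, the counts without them lend no support.

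Of the 9 higher loci, 7 did not overlap between the groups, in the sense that every 18M-MR library lay above every 15M-MR library. Over all loci this held for 8, 0.0646%, and the reverse for 4, 0.0323%. The filter itself bears on this: 8 of the loci tested had 0 libraries of 15M-MR at 1 FPKM and entered through 18M-MR alone, and these are 8 of the 9 higher loci. They had to be higher at 18 months, so their number, direction and lack of overlap are a description and lend no support. The loci called that entered otherwise were Tmem254c/Tmem254b, Lynx1 and Lhpp, with all 8 of 15M-MR and all 7 of 18M-MR at the filter, and MSTRG.43220, with 8 and 1. MSTRG.43220 thus met the filter through 15M-MR, the group where it was high. Gm13304, at chr4:42114817-42115917 of GRCm38 among copies of a chemokine gene cluster that holds Ccl21b, was 1 of the 8 that entered through 18M-MR alone. It had 6 of the 7 libraries of 18M-MR at the filter. In 15M-MR it ran from 0.0152 to 0.0595 FPKM, with a median of 0.0292. In 18M-MR it ran from 0.364, in 18M-MR 1, to 11.4, with a median of 4.22. The fit gave a difference of 2.27 ± 0.29 (SE; limma, adjusted p 5.80e-06), for a locus that the filter kept only because it was high at 18 months. All 15M-CD libraries, those of lane 3 included, lay between 0.00860 and 0.0439 FPKM, and 5M-MR between 3.75 and 9.37, so that the 15-month libraries of both diets were the low ones.

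The locus MSTRG.24886, which has no symbol, followed the same order. Its 15M-MR libraries ran from 0.00770 to 0.0449 FPKM with a median of 0.0310, and its 18M-MR libraries from 0.572, in 18M-MR 1, to 7.44 with a median of 5.09. The difference was 2.28 ± 0.27 (SE; limma, adjusted p 1.70e-06), without overlap. MSTRG.9728, also without a symbol, had a median of 0.00592 FPKM at 15 months and 3.56 at 18 months, and a difference of 1.96 ± 0.27 (SE; limma, adjusted p 1.90e-05). The filter kept MSTRG.24886 and MSTRG.9728 only through 18M-MR, so their p-values, direction and lack of overlap are a description and lend no support. Such low 15-month values are close to the floor of the table, and fold changes against them are not given.

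Tmem254b and Tmem254c encode copies of a small membrane protein, and the deposited table gives them 1 shared locus. They lie on the minus strand at chr14:26203369-26207041 and chr14:26063919-26067355 (GENCODE M21). Their promoters, 250 bases before to 50 after the RefSeq start, are printed to show how alike the copies are: capitals mark a run of 284 bases shared by both, and the RefSeq windows are chr14:26206976-26207275 for Tmem254b and chr14:26067376-26067675 for Tmem254c on GRCm38.p6, each written 5′ to 3′.
Tmem254b: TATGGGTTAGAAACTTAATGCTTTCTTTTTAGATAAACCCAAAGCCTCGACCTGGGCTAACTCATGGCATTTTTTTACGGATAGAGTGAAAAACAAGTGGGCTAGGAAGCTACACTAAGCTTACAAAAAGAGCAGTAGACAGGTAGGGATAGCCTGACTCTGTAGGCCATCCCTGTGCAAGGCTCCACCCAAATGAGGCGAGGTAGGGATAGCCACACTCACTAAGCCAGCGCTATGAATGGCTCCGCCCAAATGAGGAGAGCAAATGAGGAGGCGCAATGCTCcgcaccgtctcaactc
Tmem254c: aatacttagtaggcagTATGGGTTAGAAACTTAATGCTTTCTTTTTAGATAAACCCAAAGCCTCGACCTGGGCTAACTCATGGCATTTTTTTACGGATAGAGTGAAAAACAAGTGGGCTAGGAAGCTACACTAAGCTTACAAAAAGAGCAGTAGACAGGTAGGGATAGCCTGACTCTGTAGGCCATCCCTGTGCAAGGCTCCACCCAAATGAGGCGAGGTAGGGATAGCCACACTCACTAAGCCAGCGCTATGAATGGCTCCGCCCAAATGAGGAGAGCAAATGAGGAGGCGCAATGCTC
In GENCODE M21 the longest transcript of Tmem254c, 1211 bases, is contained in that of Tmem254b with 0 mismatches. That of a further copy, Tmem254a, contains both with 0 mismatches. Reads of these copies thus cannot be assigned, and the locus of Tmem254c/Tmem254b is uncertain as a single gene. This locus ran from 2.96 to 3.92 FPKM in 15M-MR, with a median of 3.34. In 18M-MR it ran from 3.68, in 18M-MR 1, to 14.8, with a median of 9.26. The group means differed by 1.05 ± 0.18 (SE; limma, adjusted p 0.00188), which did not pass with lane as a factor (adjusted p 0.0677). It did not pass in a fit of only 15M-MR and 18M-MR either. The other 6 libraries of 18M-MR lay above every 15M-MR library, and 18M-MR 1 lay within their range. The 15M-CD libraries ran from 2.79 to 3.94 FPKM, the 5M-MR libraries from 10.6 to 14.3.

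G530011O06Rik, a noncoding transcript at chrX:169975043-169978917, lies inside Mid1, a ubiquitin ligase gene at chrX:169685199-170005736 on the other strand. It ran from 0.0935 to 0.504 FPKM in 15M-MR, with a median of 0.261, and from 0.716, in 18M-MR 1, to 5.62 in 18M-MR, with a median of 2.81. Its difference was 1.47 ± 0.24 (SE; limma, adjusted p 0.000753) without overlap. The locus Mid1/Erdr1 ran from 1.296 to 3.21 FPKM at 15 months and from 4.27 to 25.6 at 18 months, again without overlap, but its difference of 1.48 ± 0.36 did not pass (adjusted p 0.104). Whether the authors' counting used strand is not given in the sources used here, so reads of these overlapping genes may not be told apart. Reads of LOC101055676/LOC100041599, which had a difference of 1.48 ± 0.26 (SE; limma, adjusted p 0.00204), may likewise be shared between its members. LOC107988026 ran from 0.0950 to 0.974 FPKM at 15 months and from 1.45 to 10.2 at 18 months, a difference of 1.54 ± 0.32 (SE; limma, adjusted p 0.0269). That call was lost without any of 6 libraries (18M-MR 6 or 7, 15M-MR 3, 5, 6 or 7; adjusted p up to 0.141), with array weights and with lane as a factor (adjusted p 0.0769). With lane as a factor G530011O06Rik (adjusted p 0.0677) and LOC101055676/LOC100041599 (adjusted p 0.0581) did not pass either. The filter kept G530011O06Rik, LOC101055676/LOC100041599 and LOC107988026 only through 18M-MR. Their p-values, direction and lack of overlap are a description and lend no support.

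Neighbours of the higher loci were examined next. Around Gm13304, 12 of 13 loci within 500 kb were tested. Beside it, a locus of Gm21093/LOC108169009 had a difference of 1.10 (adjusted p 0.182) and a locus of Gm2163 and 7 other names, Ccl21b included, of 0.93 (limma, adjusted p 0.185). The remaining differences lay between −0.22 and 0.38, with Ccl27a, a chemokine of skin, at 0.03. The locus not tested, Gm10601/Gm21075/Gm29801/Gm29804, had means of 1.99 FPKM in 5M-MR, 0.0261 in 15M-MR and 2.24 in 18M-MR. It was among the loci called without a filter. Around Tmem254b the other 5 loci tested lay between −0.27, at Arf4, and 0.07, at Zcchc24, with 0 of these 5 past the test. Tmem254a, a further copy in that window, missed the filter and was not tested. Its means were 2.54 FPKM in 5M-MR, 0.393 in 15M-MR and 1.47 in 18M-MR, the same order as at Tmem254c/Tmem254b. As reads of these copies cannot be assigned, this is not a separate observation.

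**Figure D1:**
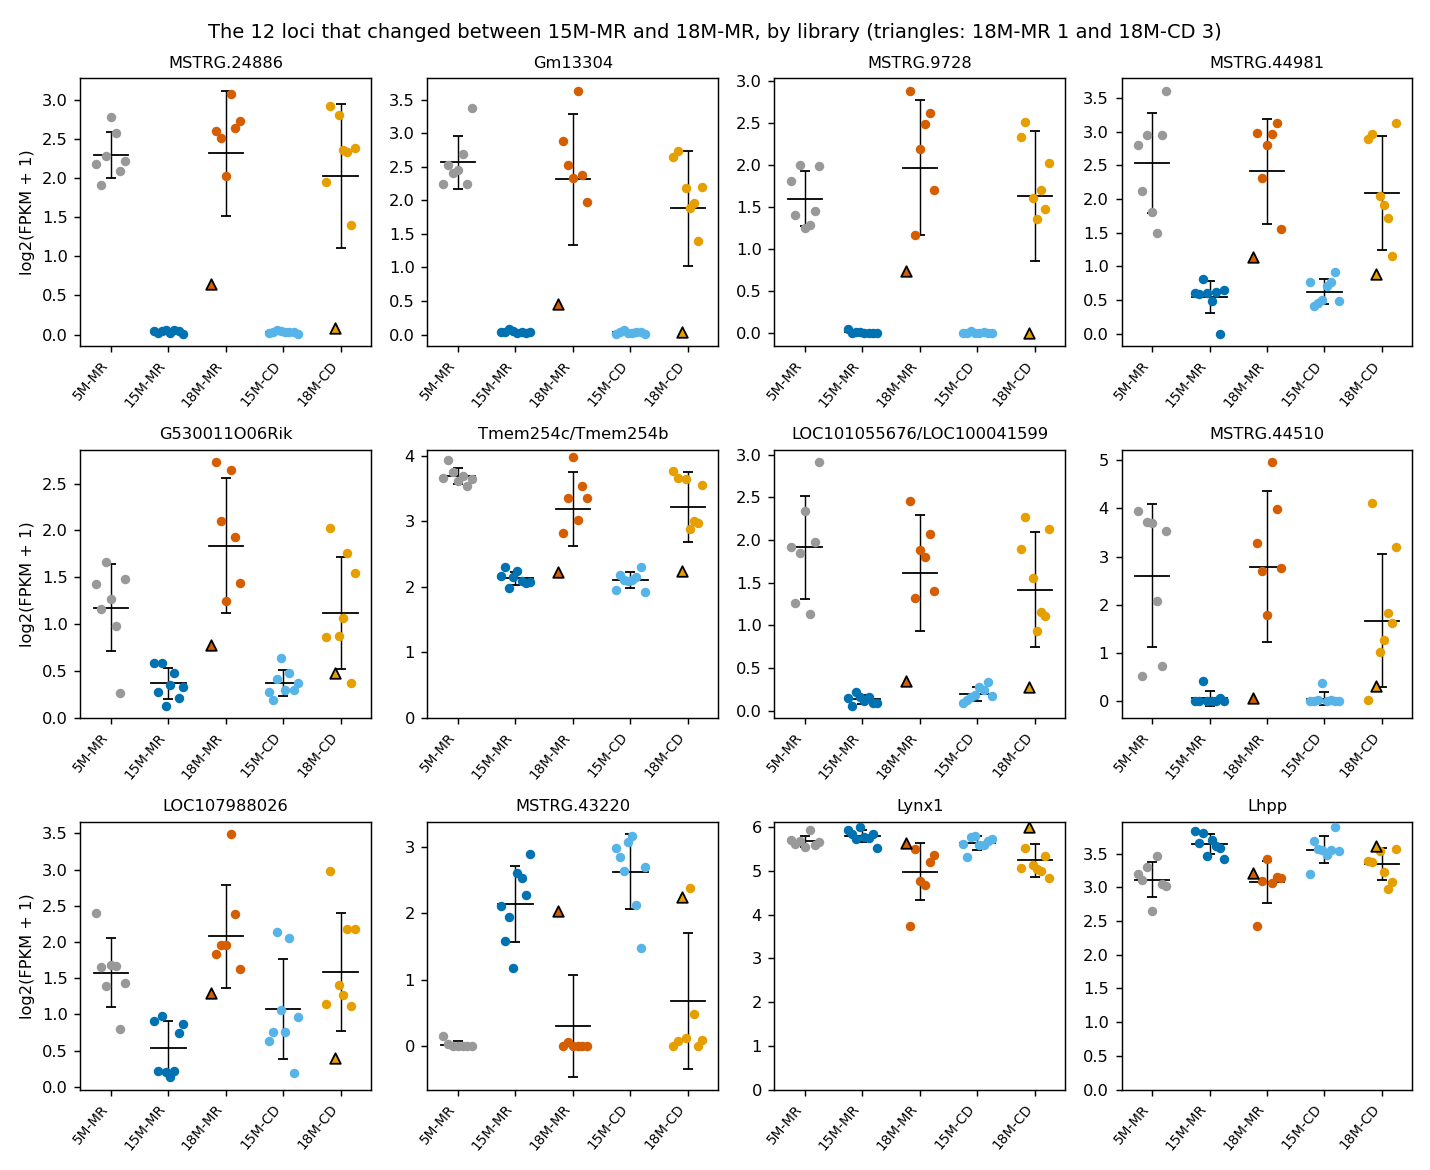
Level of each of the 12 loci that changed, as log2(FPKM + 1) on the y axis, by library in 5 groups on the x axis. Points are libraries, triangles the libraries 18M-MR 1 and 18M-CD 3, bars the group mean ± SD. At Gm13304 and MSTRG.24886 the 15-month libraries of both diets lie near 0 and 18M-MR 1 lies below the rest of its group.

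Lynx1, at chr15:74747852-74753046, was lower at 18 months. It ran from 45.0 to 63.3 FPKM in 15M-MR, with a median of 55.2, and from 12.3, in 18M-MR 2, to 49.3, in 18M-MR 1, with a median of 35.7. The difference was −0.82 ± 0.17 (SE; limma, adjusted p 0.0269), with all 7 of 18M-MR below the 15M-MR mean and the ranges overlapping. Under CD the difference was −0.40 ± 0.17, from 39.0 to 54.8 FPKM at 15 months and from 27.7 to 63.4 at 18 months. The 5M-MR libraries lay between 45.7 and 59.9. The call was lost without 18M-MR 2, 18M-MR 6 or 6 of the 15M-MR libraries (adjusted p up to 0.104), with median-of-ratios scaling and with lane as a factor (adjusted p 0.0677). It was also lost with a filter at 5 FPKM, with array weights and with the replicate number as a block. Fits of only the groups compared, or of only the 4 groups of 15 and 18 months, lost it too.

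Lhpp, at chr7:132610638-132706420 and within the annotated span of Fgfr2 on the other strand, was lower as well. Its levels were 9.69 to 13.3 FPKM in 15M-MR, with a median of 11.4, and 4.37, in 18M-MR 2, to 9.75 in 18M-MR, with a median of 7.85. The difference was −0.56 ± 0.12 (SE; limma, adjusted p 0.0385). The ranges met only at their ends, 18M-MR 5 lying just above 15M-MR 15. The 5M-MR libraries, from 5.26 to 10.02 FPKM, covered the 18-month range except for 18M-MR 2. This call too was lost without 18M-MR 2, 6 or 7 or without 6 of the 15M-MR libraries (adjusted p up to 0.182), with median-of-ratios scaling and with lane as a factor (adjusted p 0.0719). Like that of Lynx1, it was also lost with a filter at 5 FPKM, array weights and the replicate block. The same held in fits of only the groups compared and of only the 4 groups of 15 and 18 months.

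The remaining lower locus, MSTRG.43220, has no symbol. It ran from 1.26 to 6.41 FPKM in 15M-MR. In 18M-MR it was 3.12 in 18M-MR 1 and at most 0.0490 in the other 6 libraries. The difference was −1.84 ± 0.33 (SE; limma, adjusted p 0.00216), and the adjusted p was 0.0525 with lane as a factor. It did not pass in a fit of only 15M-MR and 18M-MR. The filter kept MSTRG.43220 through 15M-MR, the group where it was high, so this call is a description. The same order held under CD, with 1.80 to 7.93 FPKM at 15 months and a median of 0.0799 at 18 months, and the 5M-MR libraries lay between 0 and 0.119.

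The same ages were compared under CD in other libraries. There 9 loci passed, 0.0726% of those tested, and 825 had an unadjusted p under 0.05. Of these 9, 7 were among the 12 under MR, and each of the 12 had a CD difference of the same sign. The share of all loci with the same sign in both diets was not counted. Of the 12, 8 had entered through 18M-MR alone, so these counts are a description. At MSTRG.24886 the difference was 1.996 under CD against 2.28 under MR, at Gm13304 1.85 against 2.27, and at Tmem254c/Tmem254b 1.12 against 1.05. At Lhpp it was −0.21 against −0.56. The CD calls that did not pass under MR were Pdhx, a component of the pyruvate dehydrogenase complex on more than 1 locus, at −1.85 under CD and −0.61 under MR, and Prdm4, a zinc finger protein, at −0.99 and −0.04. The test of the difference between the diets called 0 loci, 0% (limma), with 290 at an unadjusted p under 0.05 and a smallest adjusted p of 0.868. With lane as a factor the diet difference called 1 locus, Nuak1 (2.55, adjusted p 0.00258). A locus past the test under 1 diet only is thus not shown to differ between them.

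**Figure D2:**
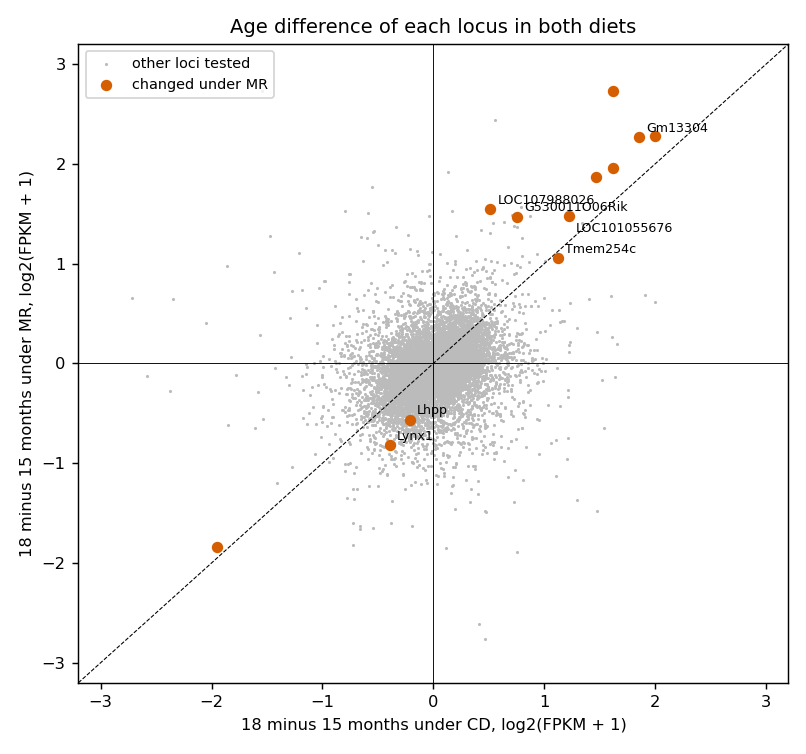
Difference between 18 and 15 months of each of the 12389 loci, under CD on the x axis and under MR on the y axis, both in log2(FPKM + 1). Orange points are the 12 loci that changed under MR, the dashed line marks equal differences. All 12 have the same sign in both diets, which was not counted over all loci, with Lhpp and Lynx1 at −0.21 and −0.40 under CD.

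The loci nearest to a diet difference were Ppox, an enzyme of heme synthesis, Fkbp5, a co-chaperone of the glucocorticoid receptor, and Gm34388/Arhgef28. Ppox had a difference of −1.37 under MR and 1.299 under CD (limma, adjusted p of the diet difference 0.868). It was listed at 0 in at least 1 library of each group and reached 4.93 FPKM in 15M-MR and 3.30 in 18M-MR. The locus of Fkbp5, a symbol that stands on more than 1 locus, had a median of 0.475 FPKM in 15M-MR and 3.79 in 18M-MR, but 5.22 in 15M-CD and 0.805 in 18M-CD. Its differences were 1.11 under MR and −1.21 under CD (adjusted p of the diet difference 0.898). Gm34388/Arhgef28 had a median of 2.47 FPKM in 15M-MR and 0.404 in 18M-MR, with differences of −1.16 under MR and 0.29 under CD. The groups overlapped at each of these 3 loci.

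Among named loci that did not pass the test on the higher side were Cort and Ier3. Cort, cortistatin of interneurons, ran from 1.41 to 4.47 FPKM in 15M-MR, with a median of 3.2, and from 3.86 to 10.9 in 18M-MR, with a median of 6.47. The difference was 0.84 ± 0.20 (limma, adjusted p 0.0831), with 7 of 7 libraries above the 15M-MR mean. It passed without 18M-MR 1 and 18M-CD 3 (adjusted p 0.0351). These libraries were picked after the data were seen, for standing near 15 months, so that p-value lends no support. Ier3, an immediate early stress gene, had a median of 1.89 FPKM at 15 months and 3.10 at 18 months (0.57 ± 0.14; adjusted p 0.104). In 5M-MR Cort ran from 4.29 to 8.45 FPKM and Ier3 from 3.13 to 4.36. Cort and Ier3 passed with median-of-ratios scaling.

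Of the neuropeptide list 16 of 20 genes were tested, 13 with a difference above 0, and the median was 0.18 against −0.08 over all loci. At an unadjusted p under 0.05 (limma) 4 were higher and 0 lower. Over all loci 1.25% were higher and 6.24% lower at that p, and 7891 of 12389 differences were below 0. The list was chosen with earlier results of these data known, so these counts are a description. Under CD the median of the list was 0.01. The list held Cort, Npy and Sst, peptides of interneurons, and Tac2, neurokinin B. Npy ran from 48.3 to 93.8 FPKM in 15M-MR and from 65.0, in 18M-MR 1, to 155 in 18M-MR, a difference of 0.49 ± 0.17 (limma, adjusted p 0.397). Sst, with 0.44, and Tac2, with 0.60, overlapped between the groups and had adjusted p-values of 0.642 and 0.617. With lane as a factor the list's median was −0.08, that of Sst −0.07, and Npy was at 0.06.

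Interneuron markers went both ways: of 16 tested, Cort, Npy and Sst included, 9 were above 0, with a median of 0.04. Nos1, neuronal nitric oxide synthase, had a median of 5.35 FPKM at 15 months and 1.42 at 18 months (−1.04 ± 0.31; limma, adjusted p 0.253). Among immediate early genes of neuronal activity 11 of 17 were above 0, with a median of 0.05. Egr1, a transcription factor of that class, ran from 14.6 to 24.4 FPKM in 15M-MR and from 19.5 to 42.5 in 18M-MR (0.45 ± 0.20; adjusted p 0.615). In 5M-MR it lay between 36.9 and 57.1 FPKM. Nr4a3, an orphan nuclear receptor and the lowest of the list, had a median of 7.14 FPKM at 15 months and 4.07 at 18 months (−0.73 ± 0.51; adjusted p 0.775). Mef2c, a transcription factor of forebrain neurons, had a difference of 1.51 ± 0.41 under MR (adjusted p 0.187) and of −0.59 under CD. Its 18M-MR libraries ran from 3.95 to 22.3 FPKM, the highest in 18M-MR 2, and its 15M-MR libraries from 0.0935 to 8.88.

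On the lower side Ndn came close to the threshold. So did Dnlz/Card9 (−0.48 ± 0.11; limma, adjusted p 0.0723), at 0.01 under CD, and Gm34388/Arhgef28 (−1.16; adjusted p 0.0793). Gabra2 lay further from it. Ndn, necdin, an imprinted growth suppressor of neurons, ran from 104 to 146 FPKM in 15M-MR. In 18M-MR its median was 69.2, the highest 156 in 18M-MR 1, and the lowest 42.6 in 18M-MR 2. The difference was −0.74 ± 0.17 (SE; limma, adjusted p 0.0580), and without 18M-MR 1 and 18M-CD 3 it was −0.91 (adjusted p 0.000290). Gabra2, an alpha subunit of the GABA-A receptor, ran from 7.46 to 21.7 FPKM in 15M-MR and from 1.76 to 16.3, in 18M-MR 1, in 18M-MR. Its difference was −1.01 ± 0.28 (adjusted p 0.187), and −1.20 without those libraries (adjusted p 0.0430). Those libraries were picked after the data were seen, for standing near 15 months, so the p-values without them lend no support. In 5M-MR Ndn ran from 58.8 to 101 FPKM and Gabra2 from 3.50 to 7.09. C57BL/6J mice are known to carry a small intronic deletion that lowers Gabra2 in brain. Of 6 genes known to differ among C57BL/6 substrains, 4 were tested and 4 were below 0, with medians of −0.43 under MR and −0.33 under CD. Among them Nnt, the mitochondrial transhydrogenase, had a difference of −0.42 (adjusted p 0.595). The genotype of the mice beyond the label was not tested.

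Further loci without overlap between the groups were Lpl, Tspan17, Ogfrl1 and Gm30033/Iyd, all lower at 18 months and none past the test. Lpl, lipoprotein lipase, ran from 6.28 to 20.2 FPKM in 15M-MR and from 2.45 to 5.61 in 18M-MR (−1.23 ± 0.30; limma, adjusted p 0.104). Under CD its difference was 0.17. Lpl, like Gm34388/Arhgef28, passed in a fit of only the 4 groups of 15 and 18 months. Ogfrl1 ran from 57.5 to 73.1 FPKM at 15 months and from 36.4 to 54.7 at 18 months (−0.52 ± 0.13; adjusted p 0.109). Tspan17, a tetraspanin, ran from 11.8 to 16.0 FPKM and from 3.996 to 11.4 (−0.78 ± 0.24; adjusted p 0.286).

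No member of the methionine and FGF21 lists was called, which at 0.0969% called over all loci says nothing about them. Of the methionine cycle and transsulfuration list 10 of 22 genes were tested, 9 below 0, with a median of −0.12, which was 0.00 with median-of-ratios scaling. Ahcyl2, a relative of the hydrolase of S-adenosylhomocysteine, had a difference of −0.28 ± 0.19 (limma, adjusted p 0.763). Of the enzymes that use S-adenosylmethionine on DNA, RNA and histones 10 were tested, with a median of −0.02. Mettl3, which methylates adenosine in RNA, had a median of 0.178 FPKM at 15 months and 2.40 at 18 months, overlapping ranges that each began at 0, and a difference of 0.95 (adjusted p 0.615). ATF4 targets had 17 members tested, 9 above 0, with a median of 0.01. Slc7a5, a transporter of large neutral amino acids, methionine included, ran from 0.365 to 16.0 FPKM at 15 months and from 9.68 to 15.9 at 18 months. Its difference was 1.40 ± 0.48 (adjusted p 0.397), and 1.34 under CD.

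Of the FGF21 receptor and feedback list 11 of 20 genes were tested, 8 below 0, with a median of −0.09 that became 0.01 with median-of-ratios scaling. Klb and Fgf21 were not among the loci analysed here. Fgfr1, the main receptor partner of Klb, ran from 7.36 to 10.4 FPKM in 15M-MR and from 4.09, in 18M-MR 2, to 8.94 in 18M-MR (−0.39 ± 0.15; limma, adjusted p 0.507). Fgfr2 had a difference of −0.21 ± 0.19 (adjusted p 0.829). Fgfr3, rich in astrocytes, had one of −0.04 ± 0.16 (adjusted p 0.970), and its sign changed with the scaling.

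The CA3 list had the lowest median of the lists with at least 5 members tested. In bulk tissue fewer cells of a type and less RNA per cell cannot be told apart, here and for the other cell types. All 6 tested of the 14 markers of CA3 pyramidal and mossy cells were below 0, with a median of −0.50 against −0.08 over all loci, −0.38 with median-of-ratios scaling and −0.14 under CD. Cpne4, a copine of CA3, ran from 8.54 to 22.4 FPKM in 15M-MR and from 2.07 to 13.6 in 18M-MR (−0.90 ± 0.26; limma, adjusted p 0.215). Hs3st4, a heparan sulfate sulfotransferase, ran from 41.4 to 60.7 and from 11.9 to 51.7 (−0.63 ± 0.19; adjusted p 0.272). The highest 18M-MR library of Hs3st4 was 18M-MR 1.

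CA1 markers were below 0 in 8 of 11, with a median of −0.17. Nr3c2, the mineralocorticoid receptor, ran from 6.38 to 17.8 FPKM at 15 months and from 0 to 13.1 at 18 months (−1.38 ± 0.40; limma, adjusted p 0.207). Of 6 CA2 markers 3 were below 0 and 3 above, with a median of −0.03. Amigo2, an adhesion protein of CA2, had a median of 8.57 FPKM at 15 months and 4.35 at 18 months (−0.76 ± 0.21; adjusted p 0.187), and Rgs14, a signalling regulator there, a difference of −0.49 (adjusted p 0.626). Ntf3, a neurotrophin, and Pcp4, a calmodulin regulator, had differences of 0.26 and 0.23 (adjusted p 0.840 and 0.887), and that of Pcp4 turned to −0.76 with lane as a factor. Granule cell markers of the dentate gyrus had a median of 0.08, with 7 of 11 above 0. In the neurogenesis list, with 8 of 10 below 0, Hes5 was at −0.56 and Neurod1 at −0.48 (adjusted p 0.507 and 0.555).

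In the lists of synapses and channels 0 members were called, against 0.0969% over all loci, which says nothing about these lists. GABA receptors had 8 of 12 members below 0 and a median of −0.16. Gabbr2, the GABA-B receptor subunit that couples to G proteins, ran from 16.2 to 20.7 FPKM in 15M-MR and from 8.67, in 18M-MR 1, to 18.9 in 18M-MR (−0.40 ± 0.13; limma, adjusted p 0.385). Voltage-gated channels had 21 of 25 below 0 and a median of −0.14, synaptic vesicle genes 13 of 22 and −0.12, and glutamate receptors with their scaffold 11 of 20 and −0.12. With median-of-ratios scaling these 4 medians lay between −0.05 and 0.00.

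Glial lists were mostly on the negative side. Astrocyte markers were below 0 in 12 of 13, with a median of −0.10 that became 0.03 with median-of-ratios scaling. Gja1, connexin 43, had a median of 32.9 FPKM at 15 months and 19.2 at 18 months (−0.51 ± 0.23; limma, adjusted p 0.625). Slc4a4, a bicarbonate transporter, was at −0.64 under each diet. Homeostatic microglia had 9 of 12 below 0 and a median of −0.13, with Olfml3 at −0.39 (adjusted p 0.355) and Tmem119 at −0.26 (adjusted p 0.651). In 5M-MR Olfml3 lay between 3.12 and 4.90 FPKM, below every 15M-MR and 18M-MR library. Mature oligodendrocyte and myelin genes had 13 of 18 below 0 and a median of −0.13 under MR, and a median of 0.34 under CD. The difference of these medians was not tested.

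Markers of neighbouring and other cells varied between libraries. Ttr, the most abundant choroid plexus transcript, ran from 30.1 to 900 FPKM in 15M-MR and from 16.0 to 2620 in 18M-MR (0.41 ± 1.21; limma, adjusted p 0.963). Choroid plexus markers had a median of 0.10, neocortical markers of 0.12 and those of striatum and septum of 0.26. Of 17 markers of lymphocytes and peripheral myeloid cells only S100a9, of neutrophils, was tested. It ran from 0 to 1.79 FPKM at 15 months and from 0 to 15.1 at 18 months, the highest in 18M-MR 8 (1.05 ± 0.36; adjusted p 0.397). The part of these cells in the results was not tested.

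Metabolic lists lay slightly below 0 together with the bulk of the loci. Cholesterol synthesis had 15 of 17 below 0, a median of −0.16 and 4 members lower at an unadjusted p under 0.05; over all loci 7891 of 12389 were below 0 and 6.24% were lower at that p. These were Sc5d, Mvd, Dhcr7 and Nsdhl, enzymes of sterol synthesis, with differences of −0.35, −0.31, −0.27 and −0.21 and adjusted p-values of 0.563 to 0.626. NRF2 targets and antioxidant enzymes had 17 of 17 below 0 and a median of −0.17, with medians of −0.17 under CD and −0.04 with median-of-ratios scaling. Keap1, the inhibitor of NRF2, was at −0.26 (limma, adjusted p 0.507). Nuclear-encoded subunits of oxidative phosphorylation had 63 of 68 below 0 and a median of −0.10. Atp5d, a subunit of ATP synthase, was at −0.24 (adjusted p 0.662). That median became 0.03 with median-of-ratios scaling, whereas cytosolic ribosomal proteins had a median of 0.01 and of 0.13 with that scaling.

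**Figure D3:**
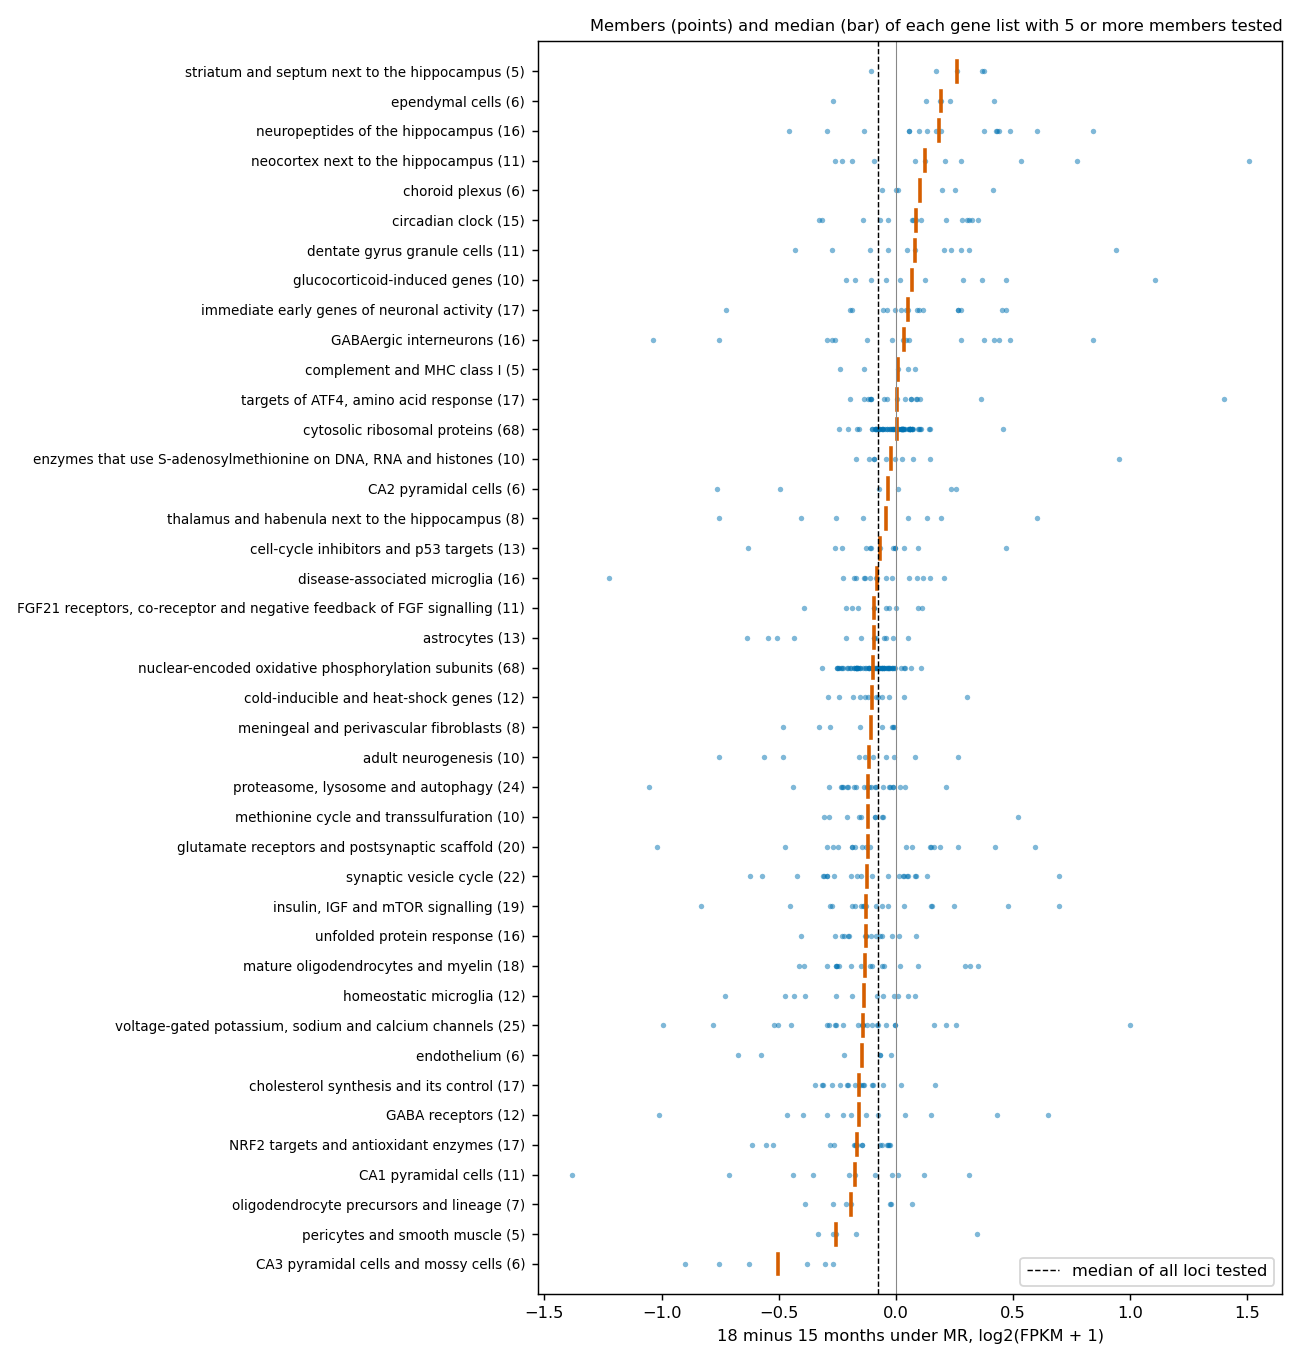
Difference between 18 and 15 months under MR in log2(FPKM + 1) on the x axis for the members of each gene list, 1 list a row with the number of members tested in brackets. Points are genes, orange bars list medians, the dashed line the median of all loci. The lowest median is that of CA3 markers, at −0.50; neuropeptides lie at 0.18.

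The size of the difference varied with level. The median difference was 0.05 among the 3098 loci with the lowest mean, −0.07 and −0.11 in the next quartiles, and −0.11 among the 3097 with the highest. Over 8288 loci with a transcript length the correlation with log2 length was −0.05, given as a description across loci of the same libraries.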

How the data were processed

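Total RNA of the hippocampus was sequenced by BGI-500 protocols, per the labels. The authors deposited FPKM in a table of 13218 assembled loci. The submitters' processing notes name Trimmomatic 0.38, StringTie 1.3.4d, HISAT2 without a version, and the build GRCm38.p6. The annotation, the strand setting and any scaling between libraries are not given in the sources used here. The table holds no fragment counts, so neither depth nor counting error is known.

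Loci that reached 1 FPKM in 6 or more of the 15 libraries entered. The log2(FPKM + 1) of all 44 libraries went into limma 3.58.1 under R 4.3.3, with a mean for each group, a trend in the prior variance and 38 residual degrees of freedom. Its 2-sided p-values were adjusted over all loci by the method of Benjamini and Hochberg, with a threshold of 0.05, and the step was tested on simulated data. Exact permutation tests of library measures, 2-sided, were run under Python 3.11.15 with NumPy 2.4.6. The numbers in sample names, shared by 6 libraries of each group, were checked for pairing. The limma p-values rest on a spread between libraries that is pooled over all groups of the series. Spreads were unequal: at Gm13304 the SD was 0.0140 FPKM in 15M-MR and 3.42 in 18M-MR.

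The comparison and the 46 gene lists with a member tested were chosen with earlier results of these data known. Lists were matched to loci with 1 gene symbol and are described by counts and medians. Named were up to 15 higher and 15 lower loci past the test that carry a gene name, or the 5 with the smallest p where fewer than 5 passed, 3 loci nearest to a diet difference, up to 4 members with the smallest p of a list, loci without overlap between the groups, the FGF receptors, Ttr and Gabra2. Loci with predicted or no names among those called, and those past the test under CD alone, were named after their values were seen. Positions and transcripts are those of GENCODE M21, promoter sequences those of RefSeq for GRCm38.p6, with 2 of 2 symbols matched. Alternatives covered the pseudocount, the filter, the scaling, lane, replicate numbers, array weights, the libraries fitted and leaving out each library. Leaving out 18M-MR 1 with 18M-CD 3 was chosen after seeing the data.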

Additional observations from a re-analysis of the deposited data

Results flagged for a closer look

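Among 60 groups of libraries tested for a library far from the rest (30 loci, each in 15M-MR and 18M-MR), 7 had a gap to the nearest library that took up more of the group's range than Dixon's limit, where chance gives about 1 in 20. MSTRG.43220 had a gap of 0.966 of the range of log2(FPKM + 1), with 3.12 FPKM in 18M-MR 1 and at most 0.0490 in the other 6. Lhpp had a gap of 0.637 in 18M-MR 2, at 4.37 FPKM against 7.36 in the next library. Ppox had a gap of 0.623 in 18M-MR 8, at 3.30 FPKM against 0.732. The other flags were among low 15M-MR values. Gm13304 had a gap of 0.560 in 15M-MR 4, at 0.0595 FPKM, and MSTRG.9728 one of 0.550 in 15M-MR 2, at 0.0342 FPKM. Of 2 other loci without a symbol, MSTRG.44510 had a gap of 0.856 in 15M-MR 4, at 0.345 FPKM, and MSTRG.44981 one of 0.595 in 15M-MR 8, listed at 0.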

How the results depend on the processing

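The number of loci changed was 12 with a pseudocount of 0.1, 17 without a filter and 1 with a filter at 5 FPKM. That 1 was Tmem254c/Tmem254b, whose 15M-MR libraries all lay below 5 FPKM, so its passing there lends no support. The filter removes most of the low loci called, but Lynx1 and Lhpp met it and did not pass. With quantile normalization 19 passed, with median-of-ratios scaling 12, with lane as a factor 6 and with array weights 8. A fit of only the groups compared gave 4, all of which had entered through 18M-MR alone. Among the calls it lost were Tmem254c/Tmem254b, Lynx1, Lhpp and MSTRG.43220. A fit of the 4 groups of 15 and 18 months gave 11 (Lpl and Gm34388/Arhgef28 gained, Lynx1, Lhpp and LOC107988026 lost). The count was 14 without the 4 libraries over 8% without a symbol, 12 without the library of another lane and 24 without 18M-MR 1 and 18M-CD 3. With 1 library left out it was 9 to 25. Of the 12, 3 passed with lane as a factor (MSTRG.24886, Gm13304 and MSTRG.9728), and 8 with each library left out in turn. All 3 that passed with lane had entered through 18M-MR alone, so their passing lends no support. Of the 8 that passed with each library left out, all but Tmem254c/Tmem254b had met the filter through the group where they were high. The loci tested were not chosen anew for these fits, so that count is a description. Named genes past the test, 3 in all, were 1 with the filter at 5 FPKM, 6 with quantile normalization, 0 with lane, 1 with array weights, 0 with only the groups compared, 7 without 18M-MR 1 and 18M-CD 3, and 1 to 8 with 1 library left out. List members called, 0, were 1 with median-of-ratios scaling (Cort), 2 without 18M-MR 1 and 18M-CD 3, and 0 to 2 with 1 library left out. The diet difference had 0 calls except 1 with lane (Nuak1, 2.55, adjusted p 0.00258). The cause was not tested.

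Libraries with the same number showed no tendency to deviate together (6 correlations from −0.28 to 0.05). So few correlations cannot show that the numbers do not pair them, and no test was run. With the replicate block 10 loci passed, without Lynx1 and Lhpp, and 1 named gene. The sign turned for Fgfr3 with median-of-ratios scaling (0.071), without the 4 libraries (0.065), without the library of another lane (0.038) and from −0.17 to 0.12 with 1 library left out. It turned for Ttr with lane (−0.73) and from −0.28 to 0.93 with 1 library left out, for Sst and Pcp4 with lane (−0.072 and −0.76), and for the FPKM sum from −7176 to 195 with 1 library left out. Unknown depth limits what the low loci can show.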
